A study of Drosophila melanogaster with 9 samples.

Results

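The Mal-A maltase genes of Drosophila melanogaster were followed in the adult gut on 3 diets. The group was taken as the 8 genes named Mal-A1 to Mal-A8 in the deposited files, out of 10245 genes in all. The rule used gene names and no measured value, but the group was chosen with earlier results of these data known. Guts were dissected from adult females of the Oregon R strain fed 10% glucose, agar or standard medium, with 3 biological repeats of each diet and 9 RNA libraries. The labels give the diets by these names alone, and neither the age of the flies nor the time on each diet is stated in them. Levels are in RPKM, reads per kilobase of transcript scaled to the depth of the library, and p-values measure the spread between the repeats. A difference between 2 diets is on the log2(RPKM + 1) scale unless stated otherwise, with the first-named diet minus the second.

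Maltases are alpha-glucosidases, enzymes that split glucose from the ends of maltose, sucrose and short starch fragments. In the fly gut they complete the digestion of starch that amylase begins, and the glucose they free is taken up by enterocytes. The genes arose by duplication, and Mal-A1, Mal-A2 and Mal-A3 carry the older names LvpH, LvpD and LvpL, for larval visceral proteins. The title of the series ties sugar sensing by activin signalling to the control of digestive enzymes, and the diets set glucose, agar and standard medium against each other.

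In the BDGP6.54 annotation the 8 genes are protein coding and lie on chromosome arm 2R in the order of their numbers, with 0 other protein-coding genes between them. Mal-A2, Mal-A4, Mal-A5, Mal-A6 and Mal-A8 are read from the plus strand and Mal-A1, Mal-A3 and Mal-A7 from the minus strand. Mal-A1 overlaps the P450 gene Cyp4e1, and Mal-A8 overlaps mtt, in each case on the opposite strand. The library kit keeps the strand, but no source used here says whether counting used it, so reads of these overlaps cannot be assigned with certainty. Cyp4e1 reached 2.48 RPKM and mtt 0.0347 RPKM in their highest libraries, far below Mal-A1 and Mal-A8.

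Library totals recovered from the values ran from 34899709 to 48389188 reads, so 1 read per kilobase stood for 0.0207 to 0.0287 RPKM. Mal-A1, Mal-A2, Mal-A3, Mal-A4, Mal-A6, Mal-A7 and Mal-A8 each came out as whole read numbers in all 9 libraries, from 371 reads (Mal-A7) to 112520 reads (Mal-A1). For Mal-A5, which has 3 annotated transcripts, no single length gave whole reads, and its annotated lengths put it at about 113 to 210 reads, the least depth of the 8. The libraries were not equally alike within a diet, with Pearson's r across the 8036 tested genes, which are not independent, of 0.984 to 0.992 for glucose, 0.958 to 0.984 for agar and 0.953 to 0.986 for standard medium. Standard repeats 2 and 3 lay at 42.5 and 40.0 on the first principal component, away from standard repeat 1 at 7.16 and from the other 6 libraries at -20.1 to -10.4. Typical genes were also lower in the standard libraries, with a median ratio to the mean profile of 0.824 to 0.877, against 1.065 to 1.069 for glucose and 1.080 to 1.117 for agar. Midgut genes marked the tissue: all 8 of 8 listed (among them GATAe, Npc1b and alphaTry) passed the filter. Their summed levels were 13785 to 16811 RPKM on glucose, 8661 to 18317 on agar and 13631 to 19449 on standard medium. Most of each sum came from the trypsin genes alphaTry and betaTry, which stood at 5255 and 3202 RPKM in agar repeat 3. No other listed midgut gene exceeded 65.3 RPKM in any library. Muscle genes were present in all libraries (6 of 7 listed in the files, summed 310 to 465, 327 to 442 and 308 to 439 RPKM on glucose, agar and standard medium). In the same order of diets fat body genes summed to 313 to 360, 236 to 317 and 276 to 358 RPKM (4 of 6 listed), and tubule genes to 8.64 to 9.69, 7.66 to 8.63 and 5.77 to 6.54 RPKM (4 of 5). Again on glucose, agar and standard medium, neuron genes summed to 5.96 to 8.32, 4.05 to 8.34 and 4.32 to 7.60 RPKM (4 of 5), and salivary gland genes to 3.67 to 4.86, 3.36 to 4.19 and 3.06 to 3.63 RPKM (2 of 3). The haemocyte genes in the files (3 of 5) stayed under 1 RPKM in all libraries. The ovary genes (2 of 6 in the files) summed to at most 0.0835 RPKM on agar and standard medium and to 0.0573 to 2.33 RPKM on glucose. Of the tested marker genes, 0 of 8 midgut, 0 of 6 muscle, 0 of 4 fat body and 0 of 4 tubule genes were called by limma for glucose versus agar, with or without repeat as a block, and 2 of them, both fat body genes, had an unadjusted p under 0.05. For agar versus standard medium 1 of 8 midgut, 1 of 6 muscle and 1 of 4 tubule genes were higher (2, 1 and 2 with the block) and 2 of 4 fat body genes lower. Of all tested genes 37.7% were called higher there (51% with the block) and 2.23% lower. With the block another fat body gene, to, was higher on agar (0.58, adjusted p = 0.0833, and 0.0328 with the block). For glucose versus standard medium 1 of 8 midgut and 1 of 4 tubule genes were higher, and with the block 1 midgut, 1 muscle, 2 tubule and 1 salivary gland gene were. Of all tested genes 21.3% were called higher there, and 42.1% with the block. Whether these other tissues bear on the maltase values was not tested, and in whole guts fewer cells of a type and less RNA per cell cannot be told apart.

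All 8 maltase genes passed the filter of at least 1 RPKM in at least 3 libraries. Their mean levels were highest on agar, intermediate on glucose and lowest on standard medium, for every one of the 8. Summed over the 8 genes the level was 376, 436 and 554 RPKM on glucose, 1144, 3357 and 2901 RPKM on agar, and 167, 133 and 260.0 RPKM on standard medium, for repeats 1, 2 and 3. The 3 diets did not overlap in this sum, and agar repeat 1 lay well under the other agar libraries.

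Mal-A1 was the most abundant member in every library. It stood at 175, 209 and 286 RPKM on glucose, at 583, 1621 and 1420 RPKM on agar, and at 82.1, 65.2 and 136 RPKM on standard medium. No diet overlapped another. By mean level it ranked 230th of the 8036 tested genes on glucose, 42nd on agar and 496th on standard medium.

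Mal-A6 was second in abundance on glucose and agar. It stood at 51.9, 75.8 and 74.4 RPKM on glucose, 182, 727 and 619 RPKM on agar, and 14.5, 14.7 and 32.8 RPKM on standard medium. The diets did not overlap, and agar repeat 1 was again the lowest agar library.

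Its neighbours Mal-A7 and Mal-A8 had the same shape at lower levels. Mal-A7 stood at 26.0, 20.7 and 17.6 RPKM on glucose, 85.9, 372 and 249 RPKM on agar, and 9.59, 4.71 and 11.3 RPKM on standard medium. Mal-A8 stood at 22.2, 27.9 and 19.9 RPKM on glucose, 77.6, 318 and 231 RPKM on agar, and 6.27, 5.36 and 9.83 RPKM on standard medium. Both were separated by diet without overlap, and their agar libraries were spread more widely than those of Mal-A2, Mal-A3 and Mal-A4.

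Mal-A2, Mal-A3 and Mal-A4, which lie side by side, showed a narrower range over the diets. Mal-A2 stood at 45.2, 45.5 and 70.8 RPKM on glucose, 90.4, 154 and 194 RPKM on agar, and 25.7, 22.7 and 35.1 RPKM on standard medium. Mal-A3 stood at 28.8, 32.2 and 48.4 RPKM on glucose, 73.4, 95.6 and 109.9 RPKM on agar, and 18.0, 11.9 and 22.1 RPKM on standard medium. These 2 genes held the same order of diets without overlap. Mal-A4 stood at 23.8, 22.3 and 35.8 RPKM on glucose, 49.6, 66.9 and 76.2 RPKM on agar, and 9.72, 6.92 and 11.8 RPKM on standard medium, again without overlap.

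Mal-A5 was the exception in level and in range. It stood at 2.47, 2.42 and 1.50 RPKM on glucose, 2.71, 2.93 and 2.37 RPKM on agar, and 1.54, 1.70 and 1.37 RPKM on standard medium. The glucose libraries overlapped both other diets, and the agar libraries lay above all standard libraries. By mean level it ranked 6679th, 6183rd and 6806th of the 8036 tested genes on glucose, agar and standard medium, whereas its closest neighbours Mal-A4 and Mal-A6 ranked 1207th and 553rd on glucose.

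**Figure D1:**
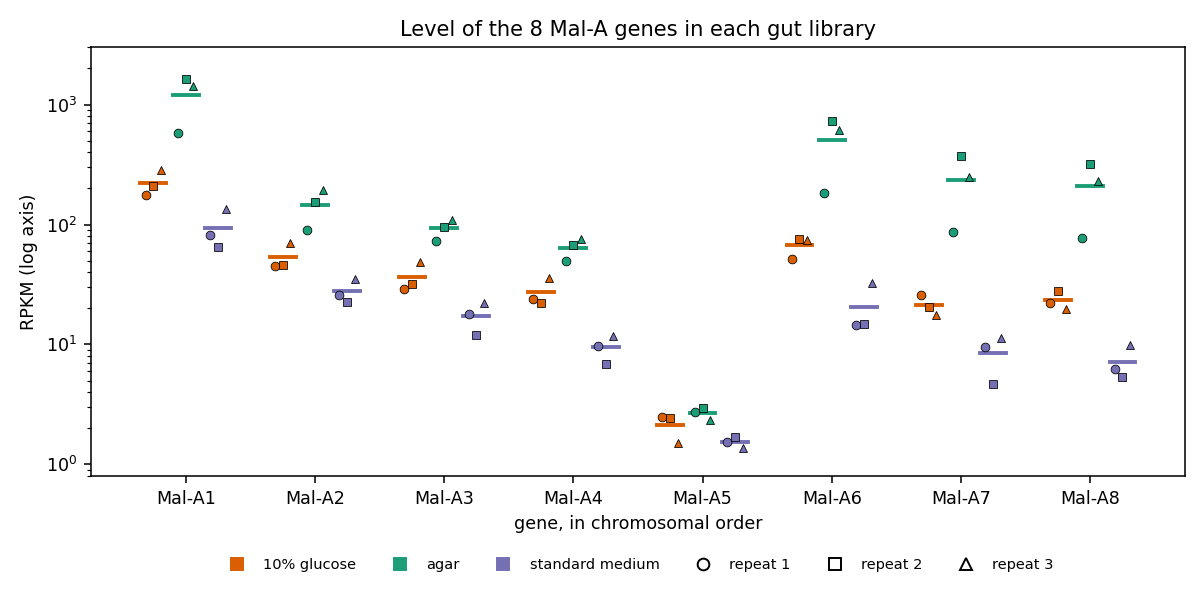
RPKM of each Mal-A gene (log axis) in the 9 libraries, with genes in chromosomal order, diets by colour from left to right as glucose, agar and standard medium, repeats by symbol, and a bar at the mean of 3. In 7 of the 8 genes the 3 diets do not overlap, and Mal-A5 stays between 1.37 and 2.93 RPKM. The share of all tested genes with this separation of 3 diets was not counted. By pairs, 10.5% of them lie wholly lower on glucose than on agar. Wholly above standard medium lie 50.3% on glucose and 47.4% on agar.

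The order of the members differed between diets. On glucose the order of means was Mal-A1, Mal-A6, Mal-A2, Mal-A3, Mal-A4, Mal-A8, Mal-A7 and Mal-A5. Only the steps below Mal-A1 and above Mal-A5 were larger than the ranges of the neighbouring members, and the steps between all others overlapped. Within each of the 3 glucose libraries Mal-A6, Mal-A2, Mal-A3 and Mal-A4 nevertheless kept this order. The steps from Mal-A4 to Mal-A8 and from Mal-A8 to Mal-A7 held in 2 of 3. On agar the order was Mal-A1, Mal-A6, Mal-A7, Mal-A8, Mal-A2, Mal-A3, Mal-A4 and Mal-A5, with overlap at every step but the last. Within libraries each agar step held in 3 of 3, apart from Mal-A8 above Mal-A2 (2 of 3). On standard medium it was Mal-A1, Mal-A2, Mal-A6, Mal-A3, Mal-A4, Mal-A7, Mal-A8 and Mal-A5. There Mal-A1 lay clear of Mal-A2, Mal-A3 of Mal-A4 and Mal-A8 of Mal-A5, and the other neighbours overlapped. Of the overlapping steps, Mal-A2 above Mal-A6 and Mal-A4 above Mal-A7 held in 3 of 3 standard libraries. Mal-A6 above Mal-A3 and Mal-A7 above Mal-A8 held in 2 of 3. Mal-A7 and Mal-A8 thus lay above Mal-A2 on agar by their means (236 ± 143 and 209 ± 122 RPKM against 146 ± 52.3 RPKM, SD, n = 3). They lay below it on standard medium (8.55 ± 3.44 and 7.15 ± 2.36 RPKM against 27.8 ± 6.47 RPKM). Agar repeat 1 went the other way, with Mal-A2 at 90.4 RPKM, Mal-A7 at 85.9 RPKM and Mal-A8 at 77.6 RPKM.

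The comparison of glucose with agar asks how maltase transcripts stand with the sugar supplied and without it. All 8 genes had lower means on glucose, and for 7 of 8 every glucose library lay below every agar library. Among all tested genes 10.5% showed this separation. The difference was largest for Mal-A7, at 21.4 ± 4.29 RPKM on glucose and 236 ± 143 RPKM on agar (-3.18, SE 0.50, adjusted p = 0.0503), with geometric means 9.44-fold apart. Mal-A8, at 23.3 ± 4.15 RPKM on glucose and 209 ± 122 RPKM on agar, gave -2.90 (SE 0.46, adjusted p = 0.0508).

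In the limma fit without a block 0 of 8 maltase genes passed an adjusted p of 0.05, and 7 of 8 had an unadjusted p under 0.05. Of all tested genes 0.249% were called lower and 0.0373% higher, and 845 had an unadjusted p under 0.05. The labels do not say what a repeat number marks. With repeat as a block, which takes equal numbers as pairs, 7 of 8 passed and were lower on glucose, the exception being Mal-A5. With the block 1.74% of all tested genes were called lower. Mal-A6, at 67.4 ± 13.5 RPKM on glucose and 509 ± 289 RPKM on agar, gave -2.69 (SE 0.52, adjusted p = 0.0775, and 0.0170 with the block). Mal-A1, at 223 ± 56.7 RPKM on glucose and 1208 ± 551 RPKM on agar, gave -2.33 (SE 0.42, adjusted p = 0.0682, and 0.0170 with the block). With the block Mal-A7 reached 0.0322 and Mal-A8 0.0204.

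The genes Mal-A2, Mal-A3 and Mal-A4 gave smaller differences of -1.39, -1.34 and -1.21, with adjusted p of 0.110, 0.0816 and 0.0865 and 0.0170 each with the block. Mal-A5, at 2.13 ± 0.544 RPKM on glucose and 2.67 ± 0.286 RPKM on agar, gave -0.24 with an interval of -0.55 to 0.06 (adjusted p = 0.640, and 0.235 with the block). The median over the 8 genes was -1.86, beside -0.02 over all tested genes. The 7 separated genes were at their lowest for agar in repeat 1. Without that library 6 of 8 passed by limma, the exceptions being Mal-A3 and Mal-A5, and Mal-A8 reached -3.49 (adjusted p = 0.00189). Over all tested genes that fit called 93 lower and 22 higher, beside 20 and 3 in the full fit. Leaving out any other single library gave 0 of 8 by limma, with adjusted p of 0.0799 to 0.196 for Mal-A8. Within each repeat number all 8 genes had lower values on glucose, with differences of -1.81 to -0.13 in repeat 1, -4.17 to -0.28 in repeat 2 and -3.83 to -0.65 in repeat 3 on the deposited log2 scale.

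The comparison of glucose with standard medium uses the same glucose libraries, so it is not independent of the comparison with agar. All 8 genes had higher means on glucose, and 7 of 8 were separated without overlap, as were 50.3% of all tested genes in the same direction. Mal-A3, Mal-A4, Mal-A6 and Mal-A8 passed the test and were higher on glucose, that is 4 of 8, against 21.3% of all tested genes called higher and 0.896% called lower. Mal-A4, at 27.3 ± 7.39 RPKM on glucose and 9.47 ± 2.43 RPKM on standard medium, was 1.43 higher (SE 0.24, adjusted p = 0.0171). Mal-A6, at 67.4 ± 13.5 RPKM on glucose and 20.7 ± 10.5 RPKM on standard medium, was 1.74 higher (SE 0.52, adjusted p = 0.0439).

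Mal-A8 was 1.60 higher (adjusted p = 0.0401) and Mal-A3 1.04 higher (adjusted p = 0.0306). Mal-A1, Mal-A2 and Mal-A7 gave 1.27, 0.92 and 1.29 with adjusted p of 0.0551, 0.0564 and 0.0826. Mal-A5 gave 0.29 with an interval of -0.01 to 0.60 (adjusted p = 0.124). With repeat as a block 7 of 8 passed, Mal-A1 (0.0190), Mal-A2 (0.0128) and Mal-A5 (0.0335) among them and Mal-A7 not (0.0786). With the block 42.1% of all tested genes were called higher.

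These calls depended on scaling. The median over all tested genes was 0.25 in this comparison and 0.01 after median-ratio scaling, in which a library is divided by its median ratio to the mean profile. After that scaling the 8 maltase genes had a median of 0.98 in place of 1.28 and 0 of 8 were called by limma (5 of 8 at an unadjusted p under 0.05), with Mal-A4 the nearest (1.14, adjusted p = 0.0809). The split of all calls also turned with it, 25 higher and 51 lower after scaling beside 1715 higher and 72 lower before. When any 1 of the 3 glucose libraries was left out 0 of 8 passed by limma (6 of 8 at an unadjusted p under 0.05), and when any 1 of the 3 standard libraries was left out 1 of 8 did, Mal-A4 each time. Leaving out agar repeat 1, which enters through the shared spread, gave 7 of 8. Calls over all genes fell as well, to 37, 9 and 78 without glucose repeat 1, 2 or 3 and to 1152, 509 and 81 without standard repeat 1, 2 or 3, beside 1787 in the full fit. Without glucose repeat 1, 2 or 3, limma gave an unadjusted p under 0.05 for 2757, 2724 and 2893 of all tested genes. With standard repeat 1 as the only standard library the 8 differences were 0.29 to 2.12. The spread then came from the glucose and agar libraries alone and 0 of all tested genes passed by limma (1483 at an unadjusted p under 0.05), so the fit made no call to compare.

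The comparison of agar with standard medium, which shares its libraries with the other comparisons, gave the largest differences of the 3. All 8 genes passed the test and were higher on agar, against 37.7% of all tested genes called higher and 2.23% called lower. With the block all 8 again passed, beside 51% of all tested genes called higher. All 8 were also separated without overlap, beside 47.4% of all tested genes in that direction. The median over the 8 was 3.12 and over all tested genes 0.28. Mal-A8, at 209 ± 122 RPKM on agar and 7.15 ± 2.36 RPKM on standard medium, was 4.50 higher (SE 0.46, adjusted p = 0.00221), with geometric means 25.8-fold apart.

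Mal-A7 was 4.47 higher (adjusted p = 0.00266) and Mal-A6 4.43 higher (adjusted p = 0.00301), 24.95-fold and 22.7-fold by geometric means. Mal-A1, at 1208 ± 551 RPKM on agar and 94.3 ± 36.8 RPKM on standard medium, was 3.60 higher (SE 0.42, adjusted p = 0.00292). The smaller group followed, with Mal-A4 2.64 higher, Mal-A3 2.38 and Mal-A2 2.31 (adjusted p = 0.00173, 0.00266 and 0.00381). Mal-A4 had the 8th smallest p of the 8036 tested genes.

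Mal-A5, at 2.67 ± 0.286 RPKM on agar and 1.53 ± 0.163 RPKM on standard medium, was 0.53 higher (SE 0.13, adjusted p = 0.0167). This member alone lost its call after median-ratio scaling (0.30, adjusted p = 0.217) and after quantile normalization (0.27, adjusted p = 0.273), and it also missed without agar repeat 2 (0.0595) or standard repeat 3 (0.0569). The other 7 genes kept theirs after scaling, with differences of 1.95 to 4.17, while calls over all genes turned to 145 higher and 230 lower, beside 3031 higher and 179 lower before scaling. With standard repeat 1 as the only standard library the differences were 0.53 to 4.81. In that fit too 0 of all tested genes passed by limma (2365 at an unadjusted p under 0.05).

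**Figure D2:**
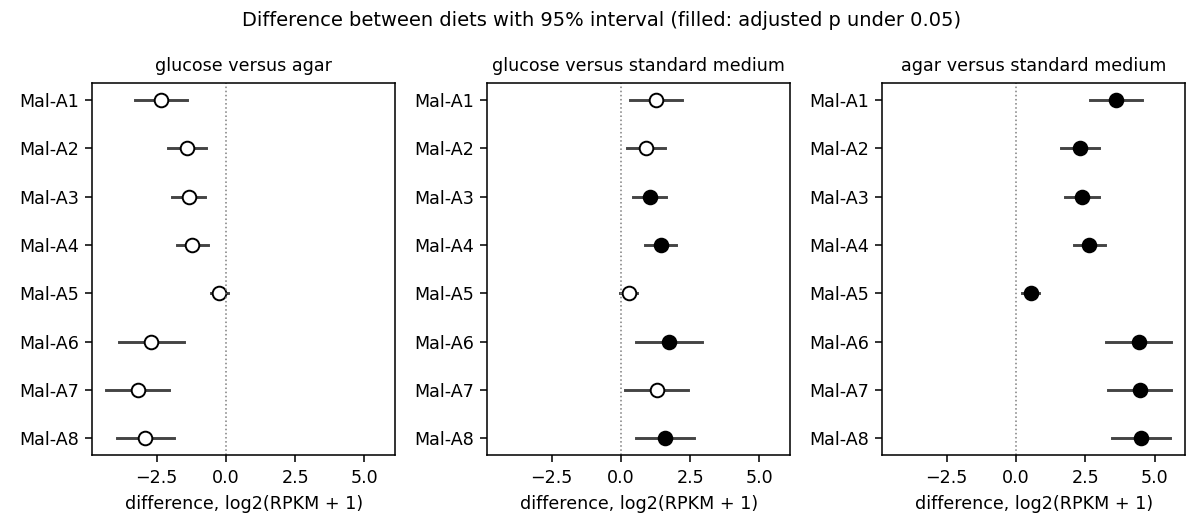
Difference of each Mal-A gene on the log2(RPKM + 1) scale in the 3 comparisons, with 95% intervals of the limma fit; filled points passed an adjusted p of 0.05. All 8 points are below 0 for glucose versus agar and above 0 in both comparisons with standard medium, with Mal-A5 nearest to 0 in each.

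The 8 genes did not change in proportion. Mal-A1 held a steady part of the summed level, 48.7 ± 2.56% on glucose, 49.4 ± 1.37% on agar and 50.1 ± 1.85% on standard medium (SD, n = 3), while the summed level ran from 133 to 3357 RPKM over the libraries. The remainder was divided differently. Mal-A6, Mal-A7 and Mal-A8 together made up 26.6, 28.6 and 20.2% on glucose, 30.2, 42.2 and 37.9% on agar, and 18.1, 18.6 and 20.8% on standard medium. Mal-A2, Mal-A3 and Mal-A4 together made up 26.0, 23.0 and 28.0% on glucose, 18.7, 9.42 and 13.1% on agar, and 31.9, 31.2 and 26.5% on standard medium. For both sets the agar libraries lay clear of the others. Mal-A5 made up 0.495 ± 0.200% on glucose, 0.135 ± 0.0881% on agar and 0.906 ± 0.374% on standard medium.

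**Figure D3:**
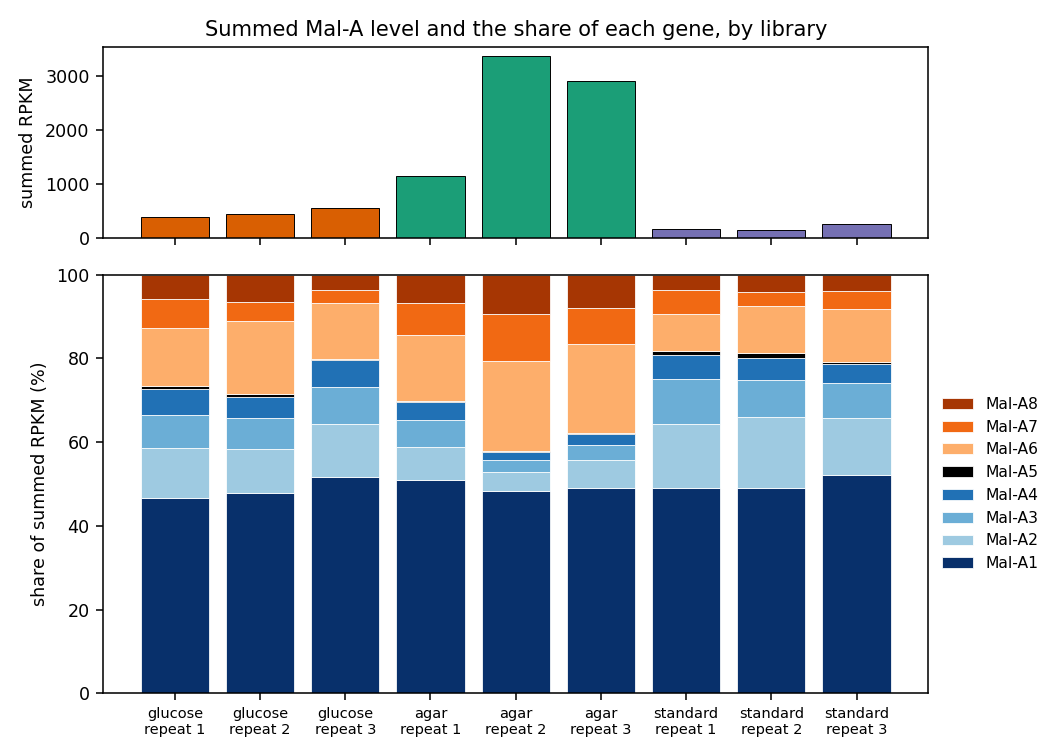
Summed RPKM of the 8 Mal-A genes in each library (upper bars) and the share of each gene in that sum in percent (lower bars, in chromosomal order from the base). The Mal-A1 share stays between 46.7% and 52.2%, and the combined share of Mal-A6, Mal-A7 and Mal-A8 is highest in the 3 agar libraries.

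Ratios between members within a library are free of library scaling, so each of the 28 pairs was compared over the 3 diets with a 2-sided exact permutation test on the deposited log2 values (280 distinct splits, smallest possible p = 0.00357). At an adjusted p under 0.05 over the 28 pairs, 20 ratios differed between diets. The grouping by position used here was made after the values were seen. All 9 ratios between a gene of Mal-A2 to Mal-A4 and a gene of Mal-A6 to Mal-A8 differed (adjusted p = 0.0167 to 0.0400 in exact permutation tests). The log2 ratio of Mal-A2 to Mal-A8 was 1.19 on glucose, -0.36 on agar and 1.98 on standard medium.

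Among Mal-A6, Mal-A7 and Mal-A8 0 of 3 ratios were called by the exact permutation test (unadjusted p = 0.414 to 0.479). Their shifts between agar and standard medium were 0.05 to 0.19 in size. Between glucose and agar they were 0.24 to 0.53 in size, and between glucose and standard medium 0.05 to 0.39. Within Mal-A2 to Mal-A4, Mal-A2/Mal-A3 was not called (a shift of -0.10 between agar and standard medium, exact permutation p = 0.700), whereas both ratios to Mal-A4 were (shifts of -0.43 and -0.32). All 3 ratios of Mal-A5 to Mal-A6, Mal-A7 and Mal-A8 differed, with shifts of -3.70 to -3.89 between agar and standard medium. The ratio of Mal-A1 differed against each of Mal-A2, Mal-A3, Mal-A4 (shifts of 1.27, 1.17 and 0.84), against Mal-A5 (2.82) and against Mal-A6 (-0.89), and missed against Mal-A7 and Mal-A8 (adjusted p = 0.117 and 0.0524 in exact permutation tests). The number called was 0 to 19 when 1 library was left out: 0 without glucose repeat 1 or standard repeat 2, 6 without glucose repeat 2 or standard repeat 1, 8 without standard repeat 3, 10 without agar repeat 2, 13 without glucose repeat 3, 16 without agar repeat 3 and 19 without agar repeat 1. When diets were exchanged only within a repeat number, the smallest possible p was 0.0278 and 0 of 28 passed the adjustment (lowest adjusted p = 0.0648).

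**Figure D4:**
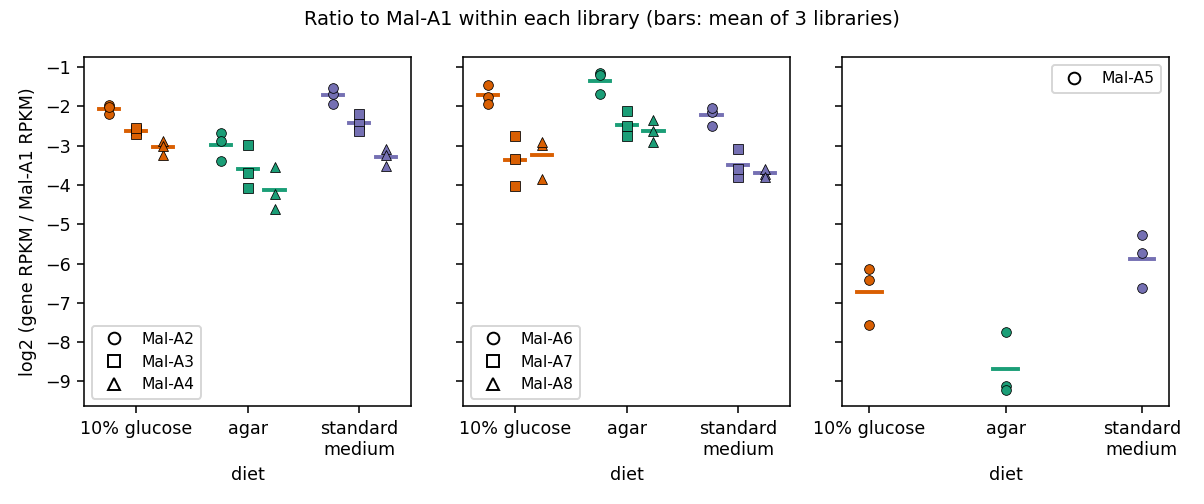
Log2 ratio of each gene to Mal-A1 within each library, by diet (glucose, agar, standard medium from left to right), with 1 point per library and a bar at the mean of 3. Mal-A2, Mal-A3 and Mal-A4 sit lowest against Mal-A1 on agar, Mal-A6, Mal-A7 and Mal-A8 highest, and Mal-A5 lies 8.70 below Mal-A1 on average on agar.

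The genes on each side of the cluster were measured for comparison, 5 per side with a value in the files. Of these 10, Lcp1 and mtt were below the filter and 8 were tested. For glucose versus agar 0 of 8 passed by limma (median -0.13, 3 of 8 at an unadjusted p under 0.05), and with repeat as a block 1 did, the P450 gene Cyp4e2, at 17.2 ± 1.55 RPKM on glucose and 28.6 ± 5.39 RPKM on agar (-0.69, adjusted p = 0.106, and 0.0490 with the block). For glucose versus standard medium 1 of 8 was higher, CG12780, at 99.6 ± 6.20 RPKM on glucose and 58.2 ± 4.50 RPKM on standard medium (0.77, adjusted p = 0.0323). The remaining 7 gave -0.05 to 0.35 and did not pass. Of all tested genes 21.3% were called higher in this comparison, and their median difference was 0.25.

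For agar versus standard medium 4 of 8 were higher, near the 37.7% of all tested genes. These were CG12780 (1.25, adjusted p = 0.00532), Cyp4e2 (1.01, adjusted p = 0.00474), the P450 gene Cyp6a13 (0.38, adjusted p = 0.0184) and CSN7, a subunit of the COP9 signalosome (0.26, adjusted p = 0.0468). The median of the 8 neighbours was 0.36, beside 0.28 over all tested genes and 3.12 for the maltase genes. Mal-A1 and Cyp4e1 are adjacent, with differences of 3.60 (adjusted p = 0.00292) and 0.33 (adjusted p = 0.0718, and 0.0470 with the block) in this comparison.

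**Figure D5:**
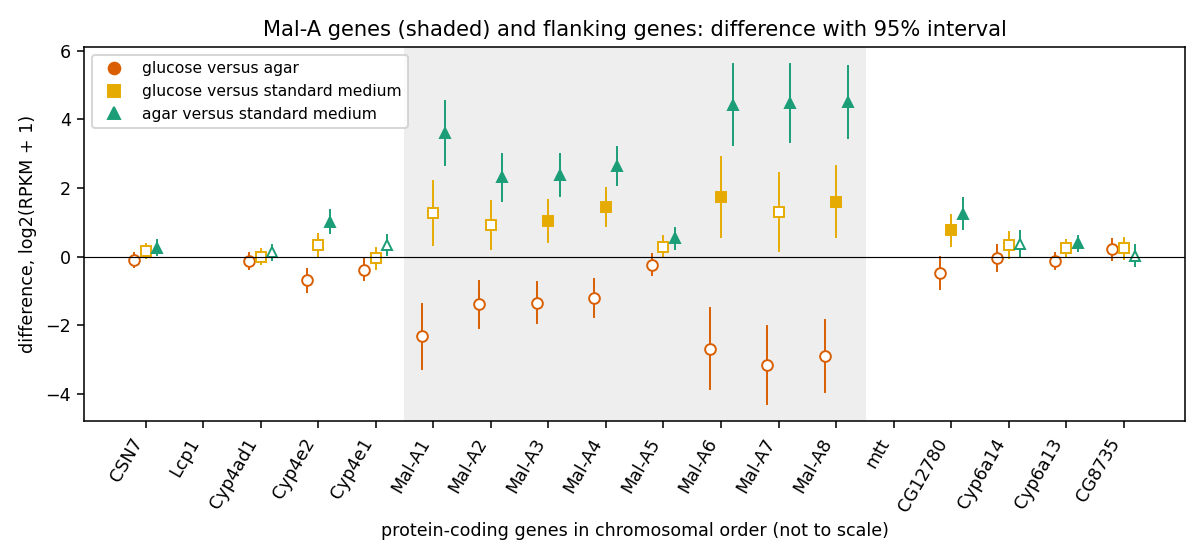
Difference on the log2(RPKM + 1) scale with 95% interval for the Mal-A genes (shaded) and the nearest 5 protein-coding genes with a value on each side, in chromosomal order; filled points passed an adjusted p of 0.05, and Lcp1 and mtt were not tested. Neighbours lie between -0.69 and 1.25, and 7 of 8 Mal-A genes exceed this range in agar versus standard medium.

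Other carbohydrases were read from a list of 8 genes, of which 7 were tested. The second maltase cluster was expressed far below the first. Mal-B1 stood at 0.441 ± 0.130 RPKM on glucose, 0.644 ± 0.328 on agar and 0.176 ± 0.0587 on standard medium and was below the filter. Mal-B2 stood at 4.01 ± 0.970 RPKM on glucose, 5.24 ± 1.44 on agar and 2.16 ± 0.258 on standard medium and was higher than on standard medium both on glucose (0.65, adjusted p = 0.0431) and on agar (0.96, adjusted p = 0.00871). Its diets had the same order of means as the Mal-A genes. For glucose versus agar, however, Mal-B2 was not called by limma (-0.31, adjusted p = 0.692, and 0.379 with the block), and the libraries overlapped.

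For glucose versus agar 2 of 7 were lower and 0 higher: Gal, a beta-galactosidase gene (-1.76, adjusted p = 0.00270), and Amyrel, a relative of the amylases (-2.69, adjusted p = 0.0412). With repeat as a block a 3rd was called, the maltase-like gene tobi (-3.02, adjusted p = 0.0562, and 0.0316 with the block). For glucose versus standard medium 4 of 7 were higher, namely tobi (1.99, adjusted p = 0.0283), Amyrel (1.98, adjusted p = 0.0179), the trehalase gene Treh (0.71, adjusted p = 0.0459) and Mal-B2. For agar versus standard medium 5 of 7 were higher, tobi (5.01), Amyrel (4.67), Gal (2.17), Treh (1.50) and Mal-B2, with adjusted p of 0.00196, 8.78e-04, 4.56e-04, 0.00461 and 0.00871. The list median was -0.79, 0.65 and 1.50 in the 3 comparisons. Of all tested genes 0.249% were called lower on glucose than on agar. Against standard medium 21.3% were called higher on glucose and 37.7% on agar, where the medians over all tested genes were 0.25 and 0.28. With the block these 3 shares were 1.74%, 42.1% and 51%. With the block the calls were 5 of 7 and 6 of 7 in the comparisons with standard medium, adding Gal on glucose (0.41, adjusted p = 0.0501, and 0.0211 with the block) and the amylase gene Amy-d on agar (0.75, adjusted p = 0.0917, and 0.0371 with the block). The other amylase gene, Amy-p, gave -0.26, 0.16 and 0.42 in the 3 comparisons and was not called in any of them with or without the block.

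Of 14 listed sugar transporter genes 9 were tested, and 0 were called for glucose versus agar by limma (7 at an unadjusted p under 0.05, and 1 higher and 2 lower with the block). Against standard medium 3 of the 9 were higher on glucose (4 with the block): CG6484, Tret1-1 and the sugar transporter gene sut2. These shares stand beside 21.3% of all tested genes, and 42.1% with the block. The median difference over all tested genes was 0.25 in that comparison. On agar 5 were higher than on standard medium, namely CG6484, CG1208 (2.53), CG1213 (0.88), sut1 (0.42) and sut2 (0.36), beside 37.7% of all tested genes. The median difference over all tested genes was 0.28 there. With the block 7 were higher and 1 lower, beside 51% of all tested genes higher. CG6484 gave -1.25 for glucose versus agar (adjusted p = 0.230, and 0.0350 with the block), 1.27 for glucose versus standard medium (adjusted p = 0.0402) and 2.52 for agar versus standard medium (adjusted p = 0.00471). Tret1-1, a trehalose transporter gene, gave 0.81 for glucose versus agar (adjusted p = 0.139, and 0.0175 with the block), with a higher mean on glucose, whereas the maltases had higher means on agar. Against standard medium it was higher on glucose (0.78, adjusted p = 0.0301).

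Of 11 listed genes of sugar sensing and activin signalling 9 were tested, and 0 were called for glucose versus agar by limma (4 at an unadjusted p under 0.05, and 1 with the block). That 1 was sug, a zinc finger transcription factor gene, at 58.6 ± 13.3 RPKM on glucose, 25.9 ± 13.4 RPKM on agar and 74.5 ± 22.0 RPKM on standard medium. It was lower on agar than on standard medium (-1.56, adjusted p = 0.0130), where the maltase genes were higher. The activin-like ligand gene daw gave 0.65 for glucose versus agar (adjusted p = 0.280, and 0.0968 with the block), and its receptor gene babo gave -0.18 (adjusted p = 0.846). Against standard medium 2 of these 9 were higher on glucose, the zinc finger gene cbt (0.41, adjusted p = 0.0491) and the type II receptor gene put (0.47, adjusted p = 0.0182), a share near the 21.3% of all tested genes. The median difference over all tested genes was 0.25 there, and the 1715 genes called higher became 25 after median-ratio scaling. How the listed genes stood after that scaling was not examined. With the block 5 of 9 were higher, beside 42.1% of all tested genes. The ligand gene daw was among them (0.47, adjusted p = 0.112, and 0.0465 with the block). On agar 2 were higher than on standard medium, put (0.40, adjusted p = 0.0112) and the ligand gene myo (0.68, adjusted p = 0.0374). The 1 that was lower was sug. Of all tested genes 37.7% were called higher and 2.23% lower in this comparison, and their median difference was 0.28. With the block 3 of the 9 were higher and 1 lower, beside 51% of all tested genes higher. The gene added was babo (0.44, adjusted p = 0.0788, and 0.0146 with the block).

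Likeness of profile was measured as Pearson's r of log2(RPKM + 1) over the 9 libraries, which share diet, repeat and depth, among 2768 tested genes other than the 8 with a mean of at least 10 RPKM. Closest to Mal-A1 were CG9331 (0.992), CG4377 (0.988), tobi (0.987), CG4363 (0.985) and CG18547 (0.983). Closest to the mean of the 8 centred profiles were tobi (0.995), Amyrel (0.987), CG4377 (0.986), CG8925 (0.985) and CG9331 (0.984). CG9331 followed the order of the maltase diets over a narrower range, at 55.8 ± 8.27 RPKM on glucose, 113 ± 17.4 RPKM on agar and 42.5 ± 5.67 RPKM on standard medium. The maltase-like gene tobi stood at 83.6 ± 3.75 RPKM on glucose, 773 ± 395 RPKM on agar and 22.4 ± 11.1 RPKM on standard medium. Among the members themselves r with Mal-A1 was 0.965 to 0.995 for 6 genes and 0.699 for Mal-A5.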

How the data were processed

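Messenger RNA of whole guts was sequenced with a stranded kit, per the labels' protocols, and CASAVA 1.82, Bowtie2 2.1 and limma are named in the submitters' processing notes. No genome build, annotation, counter or strand setting is given in the sources used here. The authors deposited 1 log2 RPKM value per gene and library. The values had the form log2((reads + 0.5) / (total + 1) / length): library totals solved with BDGP6.54 transcript lengths gave whole reads for 61.2% to 61.3% of 3317 genes with 1 transcript (relative tolerance 1e-09). For the maltase genes a length from 500 to 4000 bases was sought that gave whole reads in all 9 libraries (tolerance 1e-06 reads).

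The deposited log2 values were turned back into RPKM. Genes at 1 RPKM or more in at least 3 libraries (8036) were fitted on log2(RPKM + 1), a scale that understates changes of low genes, with limma (a mean per diet, variance trend, residual df 6, prior df 2.75). Adjusted p is Benjamini-Hochberg over all tested genes, called under 0.05. The design was fixed without a block, and the labels do not say what a repeat number marks. Residuals of libraries with the same repeat number correlated at 0.172 to 0.590 (9 pairs) and others at -0.529 to 0.287 (18 pairs), so the repeat numbers were taken to pair the libraries and blocked values or counts are given where they change calls. The members, lists and tests were chosen with earlier results of these data known. Named genes were all 8 maltase genes, the called genes of 3 lists (carbohydrases, transporters, sensing), always Mal-B1, Mal-B2, daw, sug and babo, 5 flanking genes per side, and the 5 genes most alike to Mal-A1 and to the mean profile. Amy-p, Amy-d and the marker genes were named beyond that rule, after their values were seen. Alternatives were other pseudocounts, no filter, median-ratio and quantile scaling, the compared diets alone, the block, and libraries left out. The procedure was tested on simulated data in which libraries were independent. That test therefore does not cover the correlation of libraries with the same repeat number. The differences planted for limma lay in genes of higher level than Mal-A5. The software was limma 3.58.1 under R 4.3.3, and pandas 2.3.3, Matplotlib 3.10.9 and NumPy 2.4.6 under Python 3.11.15.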

Additional observations from a re-analysis of the deposited data

How the results depend on the processing

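Over all alternatives each maltase gene kept the direction of its difference, in 144 of 144 values for glucose versus agar and 152 of 152 in each comparison with standard medium. The number of maltase genes called moved more. For glucose versus agar it was 0, and it became 2 with a pseudocount of 5 and 7 with the replicate block, with or without median-ratio scaling. For glucose versus standard medium it was 4, and it became 2 with a pseudocount of 5, 0 under median-ratio scaling, 0 under quantile normalization, 7 with the compared diets alone, 7 with the replicate block and 1 with the block and scaling together. For agar versus standard medium it was 8, and it became 7 under median-ratio scaling, under quantile normalization and with scaling and the block together. With standard repeat 1 as the only standard library, where the spread is that of the other diets, both comparisons with standard medium gave 0 for the maltase genes and 0 for all genes, which says nothing about the maltase genes in particular. Leaving out 1 library at a time gave 0 to 6, 0 to 7 and 7 to 8 maltase genes in the 3 comparisons, the 6 being without agar repeat 1. Over all genes 23, 1787 and 3210 were called. These were 12, 76 and 375 under median-ratio scaling, 11, 56 and 338 under quantile normalization, and 191, 437 and 1156 with scaling and the block. The first was also 10 without a filter, 2 with the compared diets alone and 191 with the block, the second 3676 with the block, and the third 1990 with the compared diets alone. Leaving out 1 library gave 1 to 115, 9 to 2729 and 1667 to 3243. Ratios called between maltase genes numbered 20, 0 with the replicate block (lowest adjusted p = 0.0648) and 0 to 19 with 1 library left out. The scaling with the block and the alternatives for ratios were chosen after seeing the data. Where these counts moved the cause was not tested. Depth limits Mal-A5 more than the others, at 113 to 210 reads.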
